A study of Rattus norvegicus with 12 samples.

Results

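The genes described here are 10 genes of the unfolded protein response and the integrated stress response, chosen by name: Atf4, Ddit3, Atf3, Trib3, Asns, Chac1, Xbp1, Hspa5, Herpud1 and Dnajb9. All 10 were found among the 33294 gene symbols of the count table, and all 10 passed the filter on low counts in every comparison. RNA abundance was measured by poly(A) RNA-Seq in PAC1 cells, a rat pulmonary artery smooth muscle cell line that is kept either in a more differentiated state (PAC1-D, split 1:10 once a week) or in a more proliferative state (PAC1-P, split 1:20 2 times a week). The 12 libraries form 4 groups of 3. D1 is PAC1-D with control siRNA, P is PAC1-P with control siRNA, RBPMS KD1 is PAC1-D with siRNA against the splicing regulator RBPMS, and MBNL KD is PAC1-D with siRNAs against the splicing regulators MBNL1 and MBNL2 together. All groups received 90 pmol of siRNA in a pair of lipid transfections, so that the control cells shared the transfection. Per the labels, the second transfection came 24 h after the first and the cells were taken 48 h later, whereas the study's methods give longer intervals. The knockdowns are transient and partial, and P differs from D1 in its culture history as well as in its state, which cannot be told apart.

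Both responses are read out here as mRNA. In the integrated stress response, kinases that sense endoplasmic reticulum (ER) stress, amino acid shortage, haem shortage or double-stranded RNA phosphorylate the initiation factor eIF2α. General translation then falls while translation of ATF4 rises, and ATF4 activates genes of amino acid synthesis and transport, tRNA charging and, with DDIT3 (CHOP), cell death. In the unfolded protein response, the kinase PERK feeds into this pathway, while IRE1 splices the Xbp1 mRNA and ATF6 is cleaved to an active factor, and together they raise ER chaperones and the degradation of misfolded ER proteins. Smooth muscle cells pass large amounts of matrix protein through the ER. Gene counts show neither the translation of Atf4 nor the splicing of Xbp1.

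The siRNA targets were low in the groups labelled for them. Scaled counts, which are counts divided by library factors so that the 12 libraries can be compared, averaged 13346 ± 701 (SD, n = 3) for Rbpms in D1 and 3337 ± 60.3 in RBPMS KD1, which is 25.01% of D1. In MBNL KD, Mbnl1 was at 23.7% and Mbnl2 at 29.5% of D1. In P, Rbpms was at 6.30% of D1. Smooth muscle markers took 1.03% to 1.07% of all counts in D1, 0.863% to 0.869% in MBNL KD and 0.521% to 0.534% in RBPMS KD1. In P their share was only 0.0241% to 0.0256%. Of the other marker lists, fibroblast genes took 1.29% to 2.14% of counts in every library, epithelial genes at most 0.00897%, endothelial genes at most 0.000728% and immune genes at most 0.000158%. Nearly all of the fibroblast share came from the collagen gene Col1a1. In D1 it had 1239653 to 1287494 counts per library, where the 5 fibroblast genes together had 1252357 to 1300972. Within each group the 3 libraries, compared on halved counts, differed by more than counting noise. The MBNL KD library of replicate 3 stood apart from the others of its group, with a chi-square per degree of freedom of 6.80 and 6.84 against replicates 1 and 2, compared with 1.89 between those 2 libraries, and it had the lowest total, 80842635 counts, where the other 11 libraries lay between 86972422 and 90771289. Without it, the members that passed the test in MBNL KD against D1 were again 6 higher and 3 lower.

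Promoters of 5 members held a response element by sequence, and these stretches are shown because the members fall into the 2 arms that the elements are named for. The 250 bases upstream of the start of each gene were searched on both strands in RefSeq promoters of the assembly GRCr8, where 9 of the 10 members matched an entry; the counts themselves were made on mRatBN7.2. The C/EBP-ATF response element (CARE, letters TGATGNAA), bound by ATF4 dimers, occurred upstream of Trib3, Chac1 and Herpud1, and in 3.40% of all 33469 promoters. The ER stress response element (ERSE, letters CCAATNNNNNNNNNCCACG), bound by ATF6 and XBP1, occurred upstream of Hspa5 and Xbp1, and in 0.0657% of all promoters. ERSE-II (letters ATTGGNCCACG), which shares the letters CCACG with ERSE, occurred upstream of Herpud1 and in 0.0418% of all promoters. The UPRE (TGACGTGG) and the CRE (TGACGTCA), which begin with the same letters TGACGT, occurred upstream of 0 of the 9 members and in 0.520% and 1.59% of all promoters. A match is a description of these letters only. In the stretches below, read 5′ to 3′ on the strand of the gene, capitals mark the element, and for CARE they show its reverse complement, since all 3 matches lay on the opposite strand. They lie at chr3:161275534-161275574 (minus strand, Trib3), chr3:126795944-126795991 (plus strand, Chac1), chr19:10614801-10614911 (minus strand, Herpud1, CARE first and ERSE-II second), chr3:38452953-38453011 (plus strand, Hspa5) and chr14:84604538-84604596 (plus strand, Xbp1), all of them upstream of the annotated start.
Trib3: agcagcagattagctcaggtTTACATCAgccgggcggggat
Chac1: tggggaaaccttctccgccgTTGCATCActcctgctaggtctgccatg
Herpud1: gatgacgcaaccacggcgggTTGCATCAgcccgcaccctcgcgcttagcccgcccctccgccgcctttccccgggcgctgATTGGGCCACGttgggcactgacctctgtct
Hspa5: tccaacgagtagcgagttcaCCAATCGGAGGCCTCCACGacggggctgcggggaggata
Xbp1: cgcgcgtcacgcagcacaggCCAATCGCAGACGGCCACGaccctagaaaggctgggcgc

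In MBNL KD, Atf4, Ddit3, Trib3, Asns and Chac1 rose, 3 of them more than 2-fold, while Atf3 did not pass. Against D1, 6 of the 10 members rose, 3 fell and 1 did not pass, where a gene passed if its Benjamini-Hochberg adjusted p from edgeR's quasi-likelihood test was below 0.05. Among all 16053 genes tested, 33.8% rose and 33.7% fell. Trib3, Asns and Chac1 also changed by more than 2-fold, which 6.10% of all genes did in the upward direction. The median log2 fold change of the members was 0.58, compared with 0.0099 over all genes. Of the marker lists, 7 of 10 smooth muscle genes and 4 of 5 fibroblast genes fell in this comparison, and the 1 epithelial gene tested rose. The part of these markers in the members' differences was not tested.

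**Figure D1:**
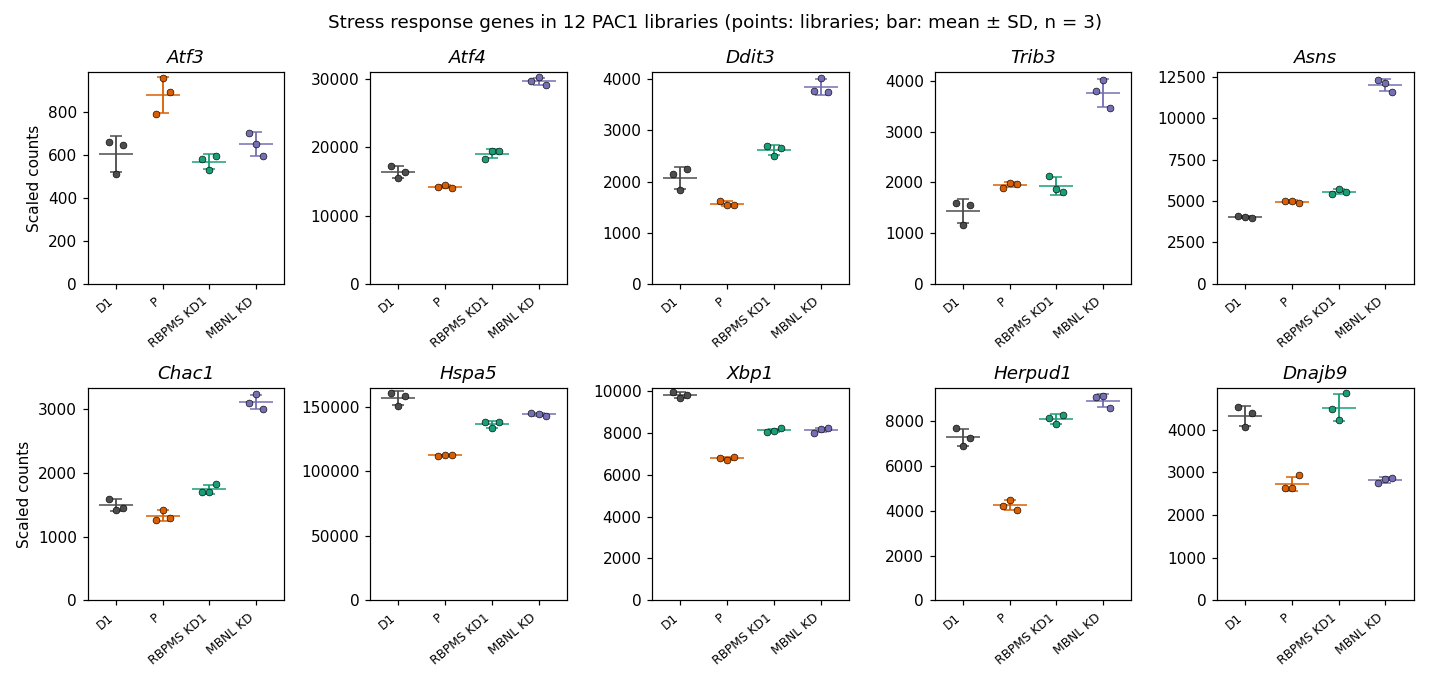
Scaled counts (vertical axes, each starting at 0) of the 10 genes in the 12 libraries by group, with points for libraries and bars for the mean ± SD (n = 3). Atf4, Ddit3, Trib3, Asns and Chac1 lie highest in MBNL KD, while Xbp1 and Hspa5 lie highest in D1 and Dnajb9 is low in both P and MBNL KD.

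Atf4, the transcription factor at the centre of the integrated stress response, measured 29587, 30180 and 29114 scaled counts in replicates 1 to 3 of MBNL KD. It measured 17168, 15515 and 16350 in D1, 18229, 19444 and 19473 in RBPMS KD1, and 14192, 14492 and 13967 in P. Every MBNL KD library thus lay above all 9 others, and the log2 fold change against D1 was 0.86 ± 0.0295 (SE; adjusted p = 4.56e-21), or 1.82-fold. Ddit3, which encodes CHOP, the factor that links prolonged stress to cell death, measured 3759, 4017 and 3750 scaled counts in MBNL KD and 2149, 1831 and 2245 in D1. It followed the same order of groups as Atf4, with 2699, 2507 and 2651 in RBPMS KD1 and 1623, 1547 and 1540 in P. Its log2 fold change in MBNL KD was 0.90 ± 0.0503 (adjusted p = 8.55e-16). The gene span of Ddit3 overlaps that of Mars1, which had 8553 to 17700 counts per library, and since the strand setting of the counting is not given in the sources used here, reads in the overlap cannot be told apart.

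Trib3, a pseudokinase that is induced by ATF4 and CHOP and dampens their activity, measured 3805, 4009 and 3471 scaled counts in MBNL KD. In D1 it measured 1594, 1155 and 1548, the widest relative spread of any member in that group. The groups did not overlap, and the log2 fold change was 1.40 ± 0.0686 (adjusted p = 3.24e-17), or 2.64-fold. Atf3, a stress-induced repressor, was different: it measured 704, 652 and 594 scaled counts in MBNL KD and 660, 510 and 645 in D1. These ranges overlapped, and the log2 fold change of 0.11 ± 0.087 did not pass (adjusted p = 0.266).

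Both metabolic enzymes among the members rose in MBNL KD. Asns, which makes asparagine from aspartate, had the largest log2 fold change of the 10 genes in this comparison, 1.57 ± 0.0280 (adjusted p = 5.97e-28), or 2.97-fold. It measured 12284, 12114 and 11575 scaled counts in MBNL KD and 4126, 4045 and 3991 in D1. Chac1, which degrades glutathione, measured 3089, 3229 and 3007 in MBNL KD and 1595, 1418 and 1451 in D1. Its log2 fold change was 1.07 ± 0.0468 (adjusted p = 2.08e-18), and the lowest MBNL KD library was above every library of the other groups for both genes.

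The 4 members of the ER arm did not rise together in MBNL KD. Hspa5, which encodes the ER chaperone BiP, measured 145634, 144214 and 143367 scaled counts in MBNL KD and 160844, 150550 and 158781 in D1. The groups did not overlap, but the log2 fold change was only -0.11 ± 0.0226 (adjusted p = 7.25e-05), and with limma on the authors' normalised values it was -0.09 (adjusted p = 0.0514). Xbp1, the transcription factor whose mRNA is spliced by IRE1, measured 8014, 8211 and 8218 scaled counts in MBNL KD and 9986, 9680 and 9812 in D1, and fell by 0.26 ± 0.0248 on the log2 scale (adjusted p = 1.14e-10). Dnajb9, the ER co-chaperone ERdj4 and a target of XBP1, fell further. It measured 2740, 2844 and 2860 in MBNL KD and 4527, 4053 and 4383 in D1, with a log2 fold change of -0.61 ± 0.0393 (adjusted p = 2.06e-14). Herpud1, an ER membrane protein that serves the degradation of misfolded proteins, rose instead, from 7689, 6905 and 7247 in D1 to 9080, 9113 and 8576 in MBNL KD, a log2 fold change of 0.30 ± 0.0315 (adjusted p = 1.09e-09).

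**Figure D2:**
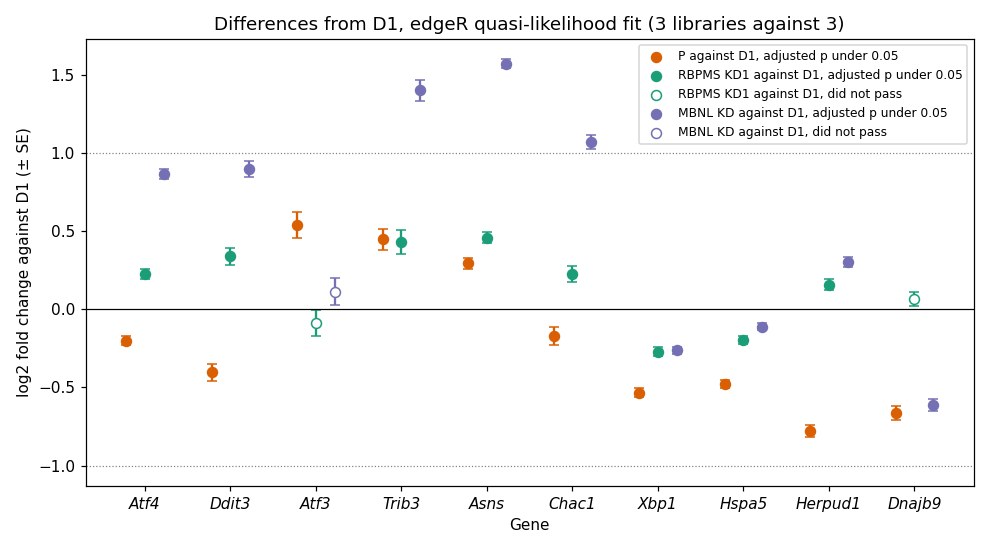
Log2 fold change against D1 (vertical axis; points ± SE from edgeR, 3 libraries against 3) for each of the 10 genes in P, RBPMS KD1 and MBNL KD, with open points for adjusted p of 0.05 or more and dotted lines at a 2-fold change. Trib3, Asns and Chac1 in MBNL KD lie above the upper dotted line, and no point lies below the lower one.

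The other genes of the pathways were described by lists. Of 44 tested targets of ATF4 and CHOP other than the members, 40 rose in MBNL KD, 3 fell and 1 did not pass, with a median log2 fold change of 0.72, and 11 rose more than 2-fold. These counts are to be read against the 33.8% of all genes that rose and the 6.10% that rose more than 2-fold. In amino acid synthesis and transport, 18 of 19 genes rose. Cth, the cystathionine gamma-lyase that makes cysteine, rose from a mean of 99.1 ± 6.32 scaled counts in D1 to 1014 ± 33.7, a log2 fold change of 3.36 ± 0.0920 (adjusted p = 1.85e-23). Pycr1, which makes proline, rose by 1.91 and Pck2, mitochondrial phosphoenolpyruvate carboxykinase, by 1.58 on the log2 scale. The exception was the amino acid transporter gene Slc38a2, with a log2 fold change of -0.29 ± 0.0253 (adjusted p = 2.25e-11). All 12 genes tested of tRNA charging and tRNA export rose, by 0.31 to 1.00 on the log2 scale, led by Eprs (1.00), Yars1 (0.98) and Mars1 (0.96). Of 13 regulators, 10 rose, among them the transcription factor genes Atf5 (1.24), Cebpb (1.05) and Jdp2 (1.00). The cell death genes Bcl2l11 and Tnfrsf10b fell, with log2 fold changes of -1.82 and -0.76, while a further cell death gene of the list, Bbc3, named after its values were seen, rose by 0.40 (adjusted p = 5.81e-09).

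Upstream and in the ER, genes moved in both directions in MBNL KD, to be read against the 33.8% of all genes that rose and the 33.7% that fell. Of the 12 stress sensors and their processing enzymes, 5 rose and 5 fell, near those shares. Eif2ak3, which encodes PERK, rose by 0.67 ± 0.0317 on the log2 scale (adjusted p = 1.42e-17), and Eif2ak1, the haem-regulated kinase, rose by 0.40. Ern1, which encodes IRE1, had a log2 fold change of -0.80 ± 0.0412 (adjusted p = 1.05e-16), and Eif2ak4, the amino acid sensor GCN2, one of -0.44. Of 10 genes for eIF2α, its phosphatase and its exchange factor, with the translational repressor Eif4ebp1, 8 rose, led by Eif4ebp1 (1.08). Of 40 tested genes for ER chaperones, folding, degradation and export, 13 rose, 21 fell and 6 did not pass, with a median of -0.07, while under quantile normalization 18 rose and 19 fell. Falls included those of the degradation genes Edem2 (-0.65) and Syvn1 (-0.64) and of the chaperone gene Creld2 (-0.64), while Fkbp14 (0.54), Selenos (0.51) and Ssr3 (0.51) rose most.

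**Figure D3:**
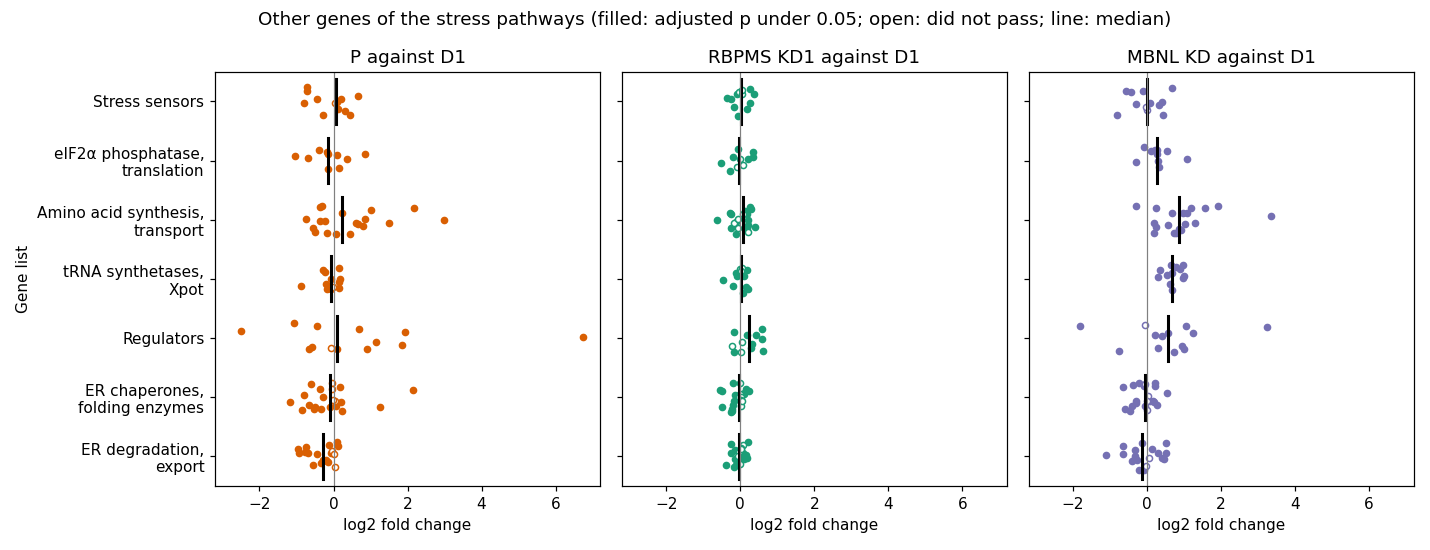
Log2 fold change (horizontal axes) of the other pathway genes in the 3 comparisons with D1, 1 row per list, with filled points for adjusted p under 0.05, open points for genes that did not pass and a black line at the list median. In MBNL KD the lists of amino acid genes, tRNA synthetases and regulators have medians of 0.88, 0.68 and 0.56, while both ER lists have medians just below 0.

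RBPMS KD1 differed from D1 by less, and 0 of the 10 members passed the test with more than a 2-fold change, also at an unadjusted p under 0.05 and with DESeq2 or limma, where 4.68% of all 15904 genes did in either direction. By adjusted p alone, 6 members rose, 2 fell and 2 did not pass, beside 29.5% of all genes higher and 29.5% lower. Asns measured 5421, 5720 and 5552 scaled counts, above every D1 library, with a log2 fold change of 0.46 ± 0.0331 (adjusted p = 1.22e-12). Trib3, at 2127, 1863 and 1803, rose by 0.43 ± 0.0768 on the log2 scale (adjusted p = 1.86e-05). Ddit3, Chac1 and Atf4 rose by 0.34, 0.23 and 0.22 (adjusted p = 3.86e-06, 4.79e-04 and 6.28e-07), each less than the same gene in MBNL KD. Chac1 measured 1697, 1702 and 1819 scaled counts.

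The ER arm in RBPMS KD1 was split. Herpud1 measured 8153, 7873 and 8298 scaled counts and rose by 0.16 ± 0.0335 on the log2 scale (adjusted p = 1.98e-04). Xbp1 measured 8071, 8099 and 8219 and fell by 0.27 ± 0.0272 (adjusted p = 1.05e-09). Hspa5 measured 138406, 133394 and 137992 and had a log2 fold change of -0.20 ± 0.0265 (adjusted p = 2.46e-07), which was -0.06 with limma on the authors' normalised values (adjusted p = 0.188). Neither Dnajb9 nor Atf3 passed: Dnajb9, at 4478, 4220 and 4860, overlapped D1 with a log2 fold change of 0.07 ± 0.043 (adjusted p = 0.197), and Atf3, at 582, 528 and 595, overlapped it with -0.09 ± 0.086 (adjusted p = 0.399). Both calls turn on 1 library, since Dnajb9 passed without RBPMS KD1 replicate 2 (0.11, adjusted p = 0.0366) and Atf3 passed without D1 replicate 2 (-0.20, adjusted p = 0.0416).

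In RBPMS KD1, 20 of 43 tested targets of ATF4 and CHOP rose, 12 fell and 11 did not pass, beside the 29.5% of all genes that rose and the 29.5% that fell. The median was 0.07 and no gene was past 2-fold. Pck2 (0.41) and Jdp2 (0.62) rose, whereas Slc7a11, the cystine transporter gene, and Sars1, the seryl-tRNA synthetase gene, had log2 fold changes of -0.62 and -0.45. Of the 40 ER genes 9 rose and 18 fell (14 and 17 under quantile normalization). Of the 12 stress sensors and their processing enzymes, 4 rose, 5 fell and 3 did not pass, beside the same shares of all genes. Eif2ak1, Ern1 and Eif2ak3 rose by 0.36, 0.26 and 0.26, while Creb3l1, Creb3l2 and Mbtps2 had log2 fold changes of -0.35, -0.25 and -0.16. Of the marker lists, 9 of 10 smooth muscle genes fell and 4 of 5 fibroblast genes rose in RBPMS KD1, as did the 1 epithelial gene tested. The 2 endothelial genes tested also rose, Vwf (1.22) and Tek (1.32), both named after their values were seen. Tek had 57 to 62 counts per library against 23 to 24 in D1. The part of these markers in the differences was not tested.

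A direct comparison of the knockdowns, MBNL KD against RBPMS KD1, had 8 members higher, 1 lower and 1 that did not pass, beside 35.1% of all 16111 genes higher and 34.5% lower. Asns was higher by 1.11 ± 0.0288 on the log2 scale (adjusted p = 2.88e-24), the only member past 2-fold, which 5.88% of all genes were in that direction. Trib3 was just under it at 0.96 ± 0.0517 (adjusted p = 1.82e-16), and it was past 2-fold without RBPMS KD1 replicate 1 or without MBNL KD replicate 3. Chac1, Atf4 and Ddit3 were higher by 0.84, 0.64 and 0.55 (adjusted p = 1.26e-16, 2.24e-18 and 2.19e-13). Dnajb9 was lower in MBNL KD, with a log2 fold change of -0.68 ± 0.0423 (adjusted p = 5.79e-15), and its 3 MBNL KD libraries lay below the lowest RBPMS KD1 library. Xbp1 did not differ detectably, at 0.0034 ± 0.027 (adjusted p = 0.917), with overlapping libraries. The remaining differences were small: Herpud1 at 0.14 (adjusted p = 8.98e-05), Atf3 at 0.19 (adjusted p = 0.0298), which did not pass with DESeq2 (adjusted p = 0.0988), and Hspa5 at 0.08 (adjusted p = 0.00165), which changed sign to -0.04 under quantile normalization. Atf3 also did not pass with limma (adjusted p = 0.0994) or without any 1 of RBPMS KD1 replicates 1 and 2 and MBNL KD replicates 1 and 2 (adjusted p = 0.0502, 0.21, 0.226 and 0.0853; log2 fold changes 0.20, 0.13, 0.12 and 0.18), and Hspa5 did not without RBPMS KD1 replicate 2 (0.05, adjusted p = 0.0801). Over all settings run, 6 to 8 members were higher. Of the 44 tested targets of ATF4 and CHOP, 35 were higher in MBNL KD and 5 lower, with a median of 0.71, and Ern1 was lower by more than 2-fold (-1.07). All 10 smooth muscle markers and the 1 epithelial marker tested were higher in MBNL KD than in RBPMS KD1. All 5 fibroblast markers and both endothelial markers tested were lower. The part of these markers in the differences was not tested.

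In scaled counts, P had the lowest group means of Xbp1, Herpud1 and Dnajb9, and likewise of Atf4, Ddit3 and Chac1. It also had the lowest of Hspa5, whose rank differed on the authors' quantile-normalised values. For Dnajb9 the P libraries overlapped those of MBNL KD, and for Chac1 those of D1. Against D1, 3 members rose and 7 fell, beside 40.4% of all 16814 genes higher and 37.6% lower, and 0 members passed with more than a 2-fold change, also at an unadjusted p under 0.05 and with DESeq2 or limma, where 27.6% of all genes did in either direction. Smooth muscle markers were far lower in P (shares above; 9 of 10 fell and 1 rose), and the 3 endothelial markers tested, 3 of 5 fibroblast markers and the 1 epithelial marker tested rose. All 6 listed endothelial markers together had 511 to 633 counts in P and 65 to 71 in D1, with Cldn5 at no more than 3 counts in every library. The part of these in the members' differences was not tested, and in bulk RNA fewer cells of a type cannot be told apart from less RNA per cell.

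All 4 genes of the ER arm fell in P. Herpud1 measured 4197, 4482 and 4050 scaled counts in P, 58.3% of the D1 mean, with a log2 fold change of -0.78 ± 0.0372 (adjusted p = 3.51e-19). Dnajb9 measured 2642, 2624 and 2927 (-0.66 ± 0.0425, adjusted p = 1.14e-15), and Xbp1 measured 6826, 6724 and 6841 (-0.53 ± 0.0272, adjusted p = 2.4e-18). These libraries all lay below those of D1. Hspa5 measured 112242, 112683 and 112447, and its log2 fold change of -0.48 ± 0.0245 (adjusted p = 2.4e-18) depended on the scaling: it was -0.01 and did not pass under quantile normalization (adjusted p = 0.656) or with limma on the authors' quantile-normalised values (adjusted p = 0.858).

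The ATF4 arm was mixed in P. Ddit3 (-0.40 ± 0.0556, adjusted p = 7.6e-08) and Atf4 (-0.20 ± 0.0292, adjusted p = 1.83e-07) fell, while Atf3, Trib3 and Asns rose. Atf3 measured 791, 957 and 891 scaled counts in P, above every library of the other groups, with a log2 fold change of 0.54 ± 0.0824 (adjusted p = 5.2e-07). Trib3 measured 1899, 1992 and 1975 (0.45 ± 0.0685, adjusted p = 5.16e-07), and Asns measured 5020, 4996 and 4893 (0.29 ± 0.0324, adjusted p = 8.15e-10). Atf4 and Ddit3 thus moved opposite to Atf3, Trib3 and Asns. Chac1, at 1256, 1423 and 1292, overlapped D1; its log2 fold change of -0.17 ± 0.0569 passed (adjusted p = 0.00776) but did not without D1 replicate 1 (adjusted p = 0.0692) or without P replicate 1 (adjusted p = 0.0715).

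The wider lists in P showed single genes with large differences in both directions. Of 44 targets of ATF4 and CHOP 22 rose and 20 fell, with a median of 0.03, near the 40.4% of all genes that rose and the 37.6% that fell. Stc2, the secreted glycoprotein stanniocalcin-2, averaged 600.0 ± 5.16 scaled counts in P and 5.46 ± 1.15 in D1 (log2 fold change 6.75). Cth (2.99), Tnfrsf10b (1.93), Bbc3 (1.85) and Pycr1 (1.03) also rose, whereas the lipoprotein receptor gene Vldlr (-2.51) and Atf5 (-1.06) fell. Of the 40 ER genes 8 rose and 25 fell with a median of -0.24, and under quantile normalization 14 rose and 19 fell. The oxidase gene Ero1a (2.16) and Txndc5 (1.26) rose against this, and the reductase gene Dnajc10 (-1.18), Edem3 (-0.96) and Selenos (-0.93) fell most. Ppp1r15a, which encodes the inducible eIF2α phosphatase subunit GADD34, had a log2 fold change of -1.05 ± 0.0459 (adjusted p = 3.33e-20).

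Across all 4 groups the members followed few patterns. Atf4, Ddit3, Chac1 and Herpud1 shared the order MBNL KD, RBPMS KD1, D1 and P from high to low, with neighbours overlapping only for Chac1 between D1 and P. Hspa5 and Xbp1 shared the order D1, MBNL KD, RBPMS KD1 and P, and for Xbp1 MBNL KD and RBPMS KD1 overlapped. For Hspa5 the order depended on the scaling, since on the authors' normalised values P averaged 141270, above RBPMS KD1 at 135970 and MBNL KD at 133110. Asns had the order MBNL KD, RBPMS KD1, P and D1, with no overlap of neighbours. In Trib3 P and RBPMS KD1 overlapped below MBNL KD and above D1, and in Dnajb9 RBPMS KD1 and D1 formed a high pair and MBNL KD and P a low pair, each overlapping within. Atf3 was high in P, and the other 3 groups overlapped with their neighbours. The genes most like Ddit3 over the 12 libraries, by Pearson correlation of log2 scaled counts among 12645 genes, were Atp6v1g1, LOC690276 and Coa7, each at 0.99, and those most like Hspa5 were Hdlbp, Atg16l1 and Loxl1, each also at 0.99. These are descriptions, since all points share the same 4 groups.

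**Figure D4:**
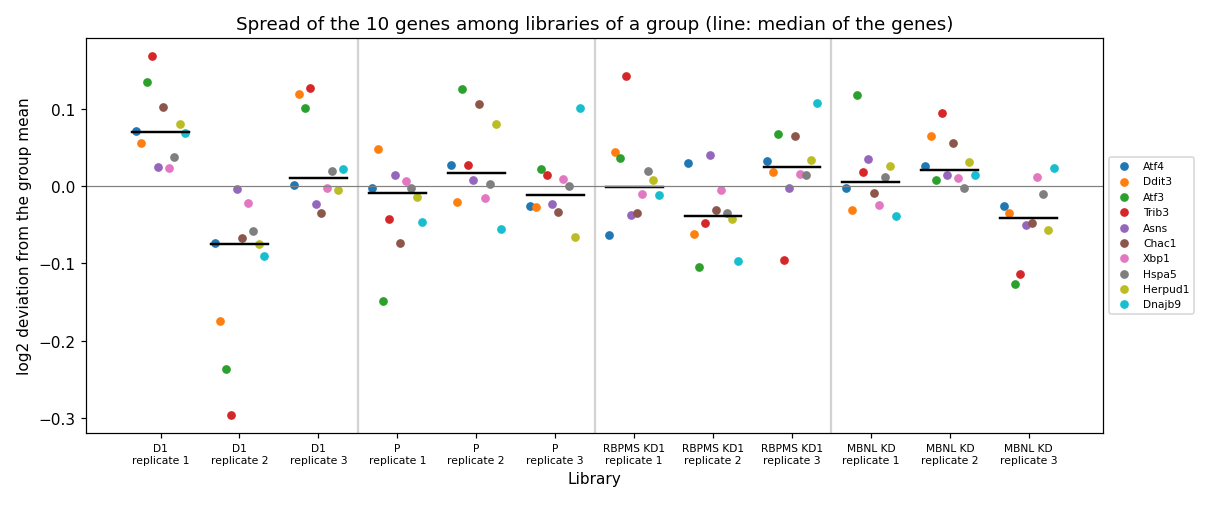
Deviation of each of the 10 genes from its group mean on the log2 scale (vertical axis) in each library, with a line at the median of the genes. D1 replicate 2 lies lowest, with a median of -0.0744, and its lowest points are Trib3, Atf3 and Ddit3.

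Single libraries were low or high for many members of a group. D1 replicate 2 was the lowest of its 3 libraries for 9 of 10 members and D1 replicate 1 the highest for 9, with median deviations of -0.0744 and 0.0704 on the log2 scale. MBNL KD replicate 3 was the lowest for 8 of 10 (median -0.0408). P replicate 2 and RBPMS KD1 replicate 3 were each the highest of their group for 6 members, with smaller median deviations of 0.0174 and 0.0252. These deviations are smaller than the differences of Atf4, Ddit3, Trib3, Asns and Chac1 between MBNL KD and D1, and leaving out any single library left the 3 members past 2-fold in MBNL KD at 3.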

How the data were processed

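The authors subsampled the reads, aligned them with STAR 2.7.11b to mRatBN7.2 and made gene counts with featureCounts. The deposited counts are not normalised, and strand and mate settings are not given in the sources used here. Counts per library exceeded the read number that the study's methods give after subsampling, so mates of a pair may have been counted separately. The halved counts allow for this. The authors' second table holds signal values, made from the deposited counts by noise correction and quantile normalization. edgeR 4.0.16 (R 4.3.3) was run on the counts of the 6 libraries compared (filterByExpr, TMM, quasi-likelihood F test, two-sided, Benjamini-Hochberg adjustment over all genes tested). The SE was obtained as the absolute log2 fold change over the root of F. Scaled counts use TMM factors over 12 libraries. A fold above 2 was the second threshold. The step was tested on simulated data.

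The members and the gene lists were chosen with earlier results of these data known. Named are all members, the 3 siRNA targets, the 3 genes most correlated with Ddit3 and with Hspa5, and up to 3 largest rises and falls per list among passing genes whose higher group averaged 100 scaled counts or more. Bbc3, Vwf and Tek are named outside it where pointed out, and 1 gene under it is not reported here. Of 167 listed genes 165 matched. The numbers of the replicates did not pair the libraries. The study's methods describe biological replicates, while the labels give only replicate numbers; an exact permutation test of 3 against 3 cannot go below 0.1. DESeq2 1.42.0 and limma 3.58.1 served as alternatives. Promoter sequences are RefSeq's (GRCr8).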

Additional observations from a re-analysis of the deposited data

How the results depend on the processing

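Of 600 log2 fold changes of the 10 genes under 21 settings, 574 kept their direction and side of the threshold, 13 no longer passed, 2 newly passed and 11 changed sign. Of these, 9 were of genes that did not pass: Atf3 in MBNL KD against D1 (-0.0072 without D1 replicate 2, up to 0.169 on leaving out the other libraries) and Xbp1 in MBNL KD against RBPMS KD1 (-0.0016 with RLE size factors, -0.0017 without a filter, -0.0036 with DESeq2, and -0.0153 to 0.0052 on leaving out each library). The other 2 were Hspa5 in MBNL KD against RBPMS KD1, at -0.0384 under quantile normalization and -0.0306 with limma on the authors' normalised values; the cause of this and of the other changes given here was not tested. Under quantile normalization 2 members were lower and 2 past both thresholds in that comparison. With limma, 2 members were past both thresholds there, 1 member was lower in RBPMS KD1 against D1, and genes past both thresholds numbered 209 in RBPMS KD1 (745 with edgeR), 784 in MBNL KD (1643) and 1050 between the knockdowns (1920). In P they numbered 2933 with at least 10 counts in every library, fewer genes being tested, against 4641. Among genes past both thresholds, the share that was higher fell under quantile normalization from 59.4% to 45.2% in P, from 65.4% to 53.8% in RBPMS KD1 and from 59.6% to 50% in MBNL KD. Leaving out each library in turn gave 1 to 2 members past both thresholds between the knockdowns.

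Libraries with the same number did not deviate together (r over genes from -0.0509 to 0.0840). With the replicate number as a block, genes past both thresholds numbered 4593, 730, 1634 and 1915 in P, RBPMS KD1, MBNL KD and between the knockdowns, and no member changed its call. In MBNL KD against RBPMS KD1 each library correlated best with its own number. Atf3 had the fewest counts of the members, 494 to 1011 per library.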

Other observations

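Stress genes outside the ER did not share one direction with the ATF4 arm. Of 8 tested genes of the cytosolic heat shock response, 7 fell and 1 rose in MBNL KD against D1, with a median log2 fold change of -0.32, beside 33.7% of all genes that fell and 33.8% that rose. The inducible chaperone gene Hspa1b (-1.40 ± 0.146, SE), Hspa4l (-1.16) and the co-chaperone gene Bag3 (-0.49) fell, and Hsp90aa1 rose by 0.14. Against RBPMS KD1, 6 of the 8 were lower in MBNL KD and 2 higher (all genes 34.5% and 35.1%). In P, 4 rose and 4 fell (all genes 40.4% and 37.6%), with Hspa4l at 1.82 and Hspa1b at -2.24, and in RBPMS KD1 4 fell, 1 rose and 3 did not pass (all genes 29.5% each way).

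Of 8 mitochondrial stress chaperones and proteases, 6 rose and 2 fell in MBNL KD against D1, with a median of 0.26, beside 33.8% of all genes that rose and 33.7% that fell. The chaperonin gene Hspe1 rose by 0.76 and the mitochondrial Hsp70 gene Hspa9 by 0.41, while Hspd1, the partner of Hspe1, had a log2 fold change of -0.31. In P the protease gene Lonp1 rose by 0.67, with 3 genes higher, 2 lower and 3 that did not pass (all genes 40.4% higher and 37.6% lower), and in RBPMS KD1 2 rose and 4 fell (29.5% each way).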
